A study of Dugesia japonica with 4 samples.

Results

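Among the genes measured across the regenerating head of a planarian, 16 were concentrated in few places. They were chosen by their total and their spread over spots, as the DJKW features with at least 300 captured molecules in all and with a molecule in fewer than 15% of the tissue spots, that is, in fewer than 183 spots. They were drawn from 28999 DJKW features among 38792 features in all, and 4581 DJKW features reached the 300 molecules. The data are spatial transcriptomes of wild-type Dugesia japonica at the head blastema stage labelled 5 dpa, made on Visium slides, where barcoded spots in a hexagonal pattern bind polyadenylated RNA of the tissue above them. Frozen slices of 8 µm were cut from anterior to posterior and laid on the arrays at an interval of 2, giving 4 libraries, here wells A, B, C and D. All 4 carry the same labels, with no treatment or mutation, so no contrast between conditions exists. The labels say neither whether the wells hold different animals nor which part of the head each well covers. Spreads and p-values therefore concern these libraries, and may be technical.

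A planarian rebuilds a lost head from a blastema, a mass of new tissue that grows under a wound epidermis and is fed by dividing stem cells called neoblasts. Within it, differentiated types such as neurons, gland cells, muscle and epidermis form at their own positions. A transcript made by a scarce or narrowly placed cell type can be caught in few spots, but so can a transcript of low level. The 2208 DJKW features with totals in the range of the 16 that did not meet the rule were caught in at most 41.0% of spots. Few spots alone therefore do not show a rare cell type. A spot is an area that can hold several cells, so fewer cells of a type and less RNA per cell cannot be told apart here. The feature lists give identifiers alone, without symbols, so the 16 features go by their identifiers and no function is given. None of their sequences was used.

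Depth ran from 1499569 unique molecular identifiers (UMIs, single captured molecules) in well A to 4395756 in well C, over 180 to 433 spots. Groups of at least 5 connected spots, called sections, numbered 12 in each well. Their median size was 14.0 and 17.5 spots in wells A and B, and 34.5 and 35.0 spots in wells C and D. A spot was called interior if its 6 neighbouring positions all held tissue, and edge otherwise, which gave 334 interior and 882 edge spots. Wells A and B held 23 and 32 of the interior spots, wells C and D 139 and 140. Left and right are the sides of lower and higher array columns within a section. Row ends are the outer 25% of its range of array rows at either end. The left row ends of the rim held 261 spots and the right ones 110, so rim, row end and left overlap in these sections. Another 53 spots lay off the sections. Of 969 tissue barcodes, 211 occurred in more than 1 well, always at the same array position. The 3 highest spots of each feature were checked for this: the 23 tissue spots of other wells with the barcode of 1 of these 48 held 2 UMIs of the feature in all.

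The 16 features together held 5926 UMIs, 0.0501% of all. They were caught in 96 to 181 spots each, 7.89% to 14.9% of spots. DJKW.4074 was caught in the fewest spots, 96, followed by DJKW.12520 with 111 and DJKW.14455 with 117. The most UMIs belonged to DJKW.28094, with 688, then DJKW.28572 with 459 and DJKW.4076 with 438. The UMIs per spot that held a feature ranged from 1.68 for DJKW.25979 to 4.20 for DJKW.28094. DJKW.4074 and DJKW.16389 followed the latter, with 3.34 and 3.31 UMIs. The features were selected on these values, which describe them and test nothing. At the border of the rule, DJKW.28133 with 303 UMIs and DJKW.25979 with 304 lay just inside. DJKW.11795 with 299 UMIs and DJKW.17173 with 285 lay just outside. By spots, DJKW.17772 and DJKW.25979 lay just inside with 181 each, and DJKW.9483 with 184 and DJKW.12615 with 185 just outside.

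The concentration went down to single spots for some features and not for others. DJKW.4074 had 58 of its 321 UMIs in 1 spot (18.1%), at the rim of a section of well B. The same spot was the highest for DJKW.4076, with 47 UMIs. DJKW.28094 had 67 UMIs in a spot of well D and 66 in a spot of well C, both at the left row end of the rim. Each of these spots had only 2 neighbouring tissue spots, and none of the neighbours held DJKW.28094. The spot of well C was also the highest for DJKW.12520, with 38 UMIs. At the other extreme, the highest spot of DJKW.17772 held 6 UMIs, 1.97% of its total. For the median feature of the 16, 24.5 spots held 50% of the UMIs, with a range of 9 spots for DJKW.4074 to 52 for DJKW.17772. Among the 2208 DJKW features in the same range of UMIs that did not meet the rule, the median was 116 spots. The rule chose features in few spots, so this gap follows from it and tests nothing. The highest spot lay at the edge for 11 features and in the interior for 5.

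Most of the features were found in most sections, although their UMIs were spread unevenly over them. The 3 sections richest in a feature held from 14.5% of its UMIs for DJKW.25979 to 43.9% for DJKW.16389. A single section of well B held 22.4% of the UMIs of DJKW.4074. DJKW.28317 occurred in 48 of the 48 sections, DJKW.7570 and DJKW.2704 in 47, and 11 features in at least 39. In a section that held it, a feature was typically caught in few spots, the median being between 2 spots for DJKW.14455 and 6 for DJKW.28572 and DJKW.6978. The features with fewer sections lay mostly in 2 wells. DJKW.16389 and DJKW.6978 occurred in 24 sections each, which were all 24 sections of wells C and D. DJKW.17772 occurred in 2 sections of well A and 6 of well B beside all those of wells C and D. DJKW.28572 occurred in 4 sections of well A and 2 of well B, and DJKW.4074 in 3 of well C and 3 of well D. Spots with a feature often lay side by side. The share with at least 1 neighbour that also held it was 35.9% for DJKW.14455, 78.3% for DJKW.6978 and 63.4% for the median feature. The median over the 2208 other features was 77.2%, but these were caught in a median of 27.2% of spots, against 13.0% for the 16. A feature in more spots has more chances of such a neighbour. An edge spot also has fewer neighbouring tissue spots than the 6 of an interior spot. The 3 highest spots of DJKW.14455 had 1, 3 and 2 of them, and those of DJKW.6978 had 6 each. These shares therefore do not compare clumping, either between the sets or among the 16. Spots that held a feature were deeper, with median totals of 9254 to 14702 UMIs against 8115 to 8680 UMIs in spots without it. With each spot reduced to 2000 UMIs and 75 shallower spots left out, the median share with a neighbour was 26.2%, and the features were caught in 2.72% to 6.05% of spots.

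**Figure D1:**
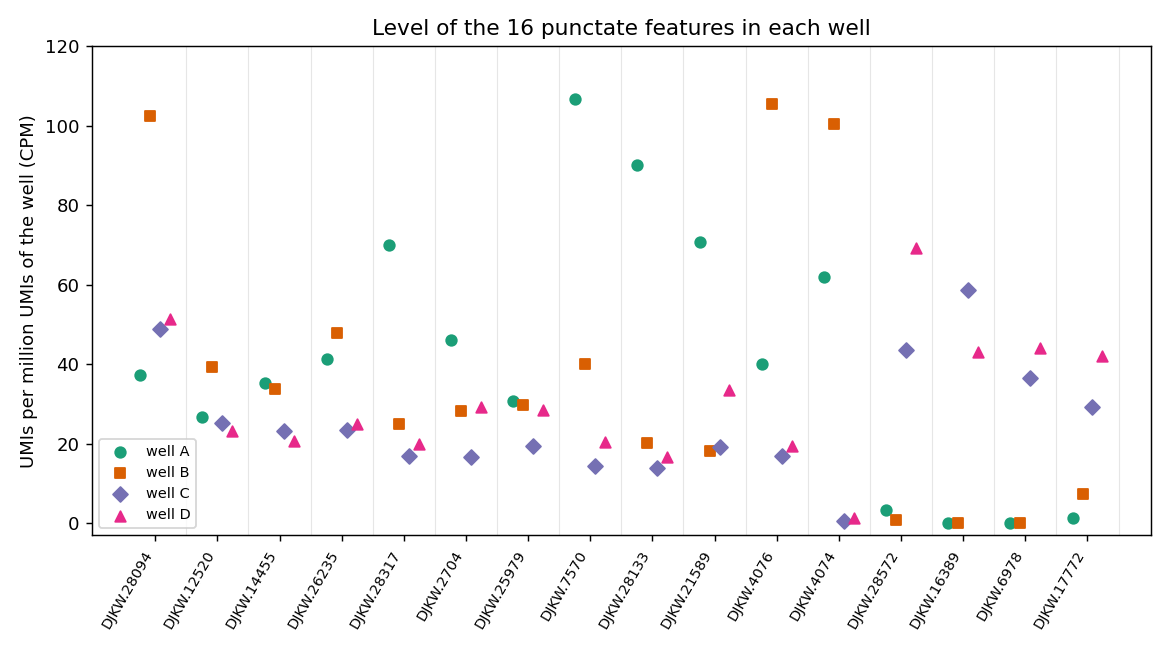
Level of each of the 16 features in wells A to D, as UMIs per 1e+06 UMIs of the well (CPM), with 1 point per well. DJKW.28572, DJKW.16389, DJKW.6978 and DJKW.17772 stand higher in wells C and D, DJKW.4074 in wells A and B, and DJKW.7570, DJKW.28133 and DJKW.28317 highest in well A.

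Levels differed widely between wells for some of the 16. DJKW.16389 had 0 UMIs in wells A and B, which allows up to 2.0 CPM and 1.37 CPM (UMIs per 1e+06 UMIs of the well, at a limit of 3 counts per library, counting error only). It stood at 58.7 CPM in well C and 43.2 CPM in well D, at least 21.6-fold above the higher limit. DJKW.6978 also had 0 UMIs in wells A and B, against 36.6 CPM in well C and 44.0 CPM in well D, at least 18.3-fold above the limit. DJKW.28572 had 5 UMIs in well A and 2 in well B (3.33 and 0.913 CPM), and 43.7 CPM in well C and 69.3 CPM in well D. DJKW.17772 stood at 1.33 and 7.31 CPM in wells A and B and at 29.3 and 42.1 CPM in wells C and D. These 4 features were thus higher in wells C and D, whose sections were larger and held most interior spots. The reverse held for DJKW.4074, at 62.0 and 100.5 CPM in wells A and B and at 0.682 and 1.33 CPM in wells C and D. In wells C and D it was caught in 3 of 402 and 5 of 433 spots, 0.746% (exact binomial 95% interval 0.154% to 2.17%) and 1.15% (0.376% to 2.67%). These intervals take spots as independent, although spots share sections and depth, so they are too narrow for a level of the well.

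DJKW.28133 stood at 90.0 CPM in well A and at 20.1, 13.9 and 16.8 CPM in wells B, C and D, so that well A supplied 63.9% of its CPM summed over wells. This was the largest share of 1 well among the 16, ahead of DJKW.4074 with 61.1% in well B and DJKW.28572 with 59.1% in well D. It was caught in 33.9% of the spots of well A and in 10.4% to 13.4% of those of the other wells. With spots thinned to 2000 UMIs these shares were 16.1% and 2.30% to 5.62%. DJKW.7570 stood at 106.7 CPM in well A and at 40.2, 14.3 and 20.5 CPM in wells B, C and D. DJKW.25979 was the most even, at 30.7, 29.7, 19.6 and 28.5 CPM in wells A to D (mean 27.1 ± 5.11, SD, n = 4). DJKW.14455 at 28.3 ± 7.35 CPM and DJKW.12520 at 28.6 ± 7.26 CPM (SD, n = 4) varied little as well. With 1 group of libraries these differences between wells have no test.

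The place on the section was not used by the rule and was tested over all features, in edgeR's quasi-likelihood test on UMIs summed per well and place, with the well as a block. A Benjamini-Hochberg adjusted p under 0.05 was the call, and all 16 features passed the filter on low counts. Between interior and edge, 9 of the 16 were called higher at the edge and 4 higher inside, where 13.2% and 15.6% of the 8636 features tested were called, 28.9% in either direction. The median log2 difference, interior minus edge, was -0.92 over the 16 and -0.06 over all features. Between right and left, 4 were called higher on the left and 1 on the right, where 1.75% and 1.26% of 7923 features were called, 3.02% in either direction. Between row ends and middle, 4 were called higher at the ends and 3 in the middle, where 3.03% and 2.15% of 8264 features were called, 5.18% in either direction. The median right minus left difference was -0.48 over the 16 against 0.00 over all features, and that of ends minus middle 0.18 against -0.01. The rule picks concentrated features, so these shares describe the 16 and are not read as particular to them.

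**Figure D2:**
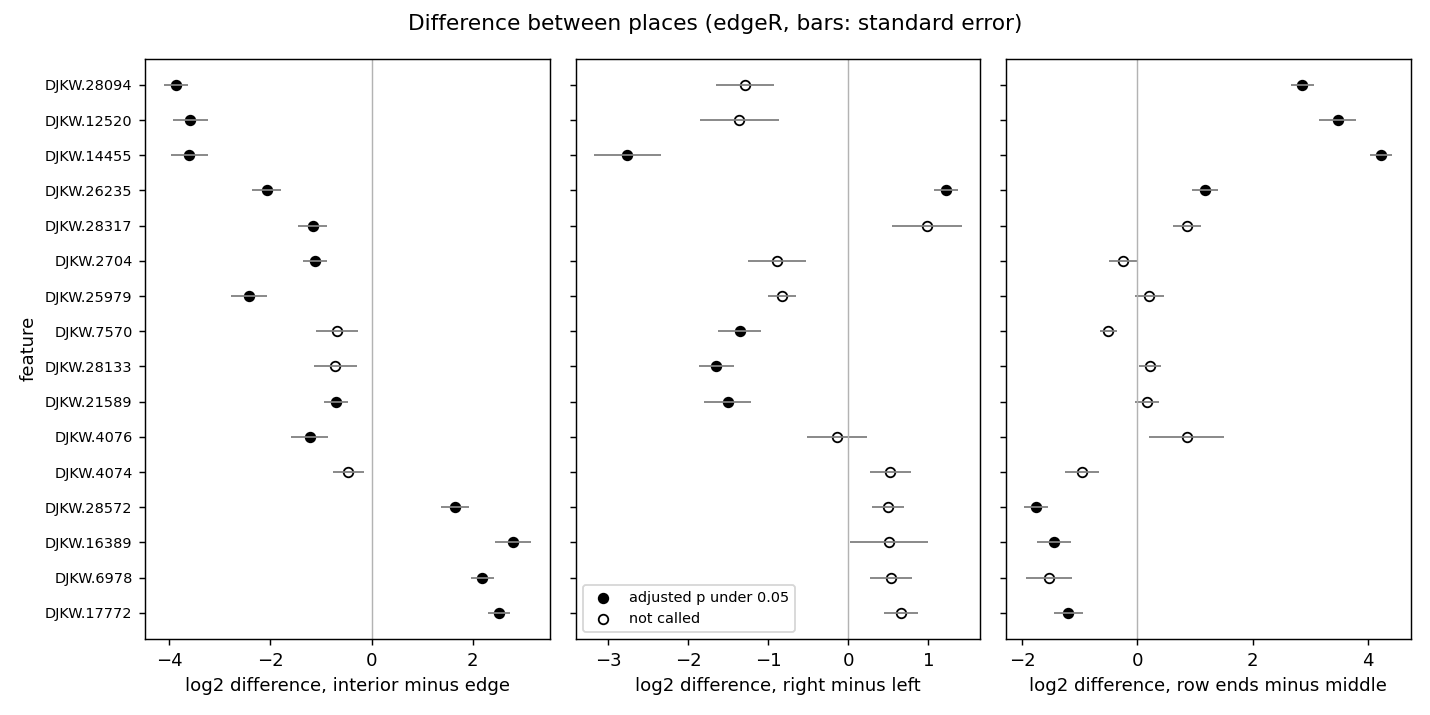
Log2 difference of each of the 16 features between interior and edge, right and left, and row ends and middle (edgeR, bars are standard errors, filled points have an adjusted p under 0.05). DJKW.28094, DJKW.12520 and DJKW.14455 lie at -3.87, -3.58 and -3.60 for interior minus edge and at 2.87, 3.48 and 4.23 for ends minus middle, while DJKW.28572, DJKW.16389, DJKW.6978 and DJKW.17772 lie on the opposite sides of 0.

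The features DJKW.14455, DJKW.12520 and DJKW.28094 lay at the row ends of the rim, mostly on the left. DJKW.14455 had 83.4% of its UMIs in the 261 edge spots of the left row ends, which supplied 21.2% of all UMIs, and it was caught in 74 of those spots. Its level there was 105 ± 24.5 CPM (of the UMIs of that place, SD over wells, n = 4), against 4.06 ± 1.87 CPM on the left rim between the ends. By well, DJKW.14455 stood at 70.1, 86.8, 61.4 and 50.3 CPM at the row ends of wells A to D and at 2.60, 3.01, 3.80 and 2.56 CPM in the middle. Its lowest row-end value, 50.3 CPM in well D, lay above its highest middle value, 3.80 CPM in well C. The difference of DJKW.14455, ends minus middle, was 4.23 ± 0.20 on the log2 scale (SE, edgeR adjusted p = 8.45e-06), an 18.7-fold higher level. It was higher at the edge than inside in 4 of 4 wells (interior minus edge -3.60 ± 0.37, edgeR adjusted p = 8.44e-06), with 0 UMIs in the interior of wells A and B. It was also higher on the left, right minus left -2.76 ± 0.42 (edgeR adjusted p = 0.0218), in 4 of 4 wells. That last call was lost without well B, C or D (edgeR adjusted p = 0.0688, 0.168 and 0.0527).

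DJKW.12520 stood at 46.7, 48.4, 64.1 and 60.4 CPM at the row ends of wells A to D and at 7.79, 8.27, 5.18 and 1.28 CPM in the middle. Every row-end value of DJKW.12520 lay above every middle value, with a log2 difference of 3.48 ± 0.32 (SE, edgeR adjusted p = 3.69e-04). Its interior minus edge difference was -3.58 ± 0.35 (edgeR adjusted p = 5.59e-06). DJKW.28094 stood at 63.2, 224, 107 and 122 CPM at the row ends and at 13.0, 24.8, 19.3 and 9.80 CPM in the middle. The row-end and middle values of the wells again did not overlap, with ends minus middle 2.87 ± 0.20 (SE, edgeR adjusted p = 6.44e-05). DJKW.28094 was higher at the edge in 4 of 4 wells, at -3.87 ± 0.24 (interior minus edge, SE, edgeR adjusted p = 1.32e-07), a 14.6-fold difference. Within the rim alone the row-end excess of all 3 was still called, at 4.28 for DJKW.14455, 2.98 for DJKW.12520 and 2.42 for DJKW.28094 (edgeR adjusted p = 1.22e-04, 2.54e-03 and 1.50e-03). DJKW.28094 and DJKW.12520 leaned left in 4 of 4 wells without passing the test (right minus left -1.29 ± 0.37 and -1.36 ± 0.49, SE, edgeR adjusted p = 0.0987 and 0.179). At the right row ends of the rim the means were 132 ± 167 CPM for DJKW.28094, 37.8 ± 32.3 for DJKW.12520 and 13.3 ± 14.1 for DJKW.14455 (SD, n = 4). At the left row ends they were 173 ± 76.4 CPM for DJKW.28094, 68.3 ± 21.4 for DJKW.12520 and 105 ± 24.5 for DJKW.14455 (SD, n = 4).

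**Figure D3:**
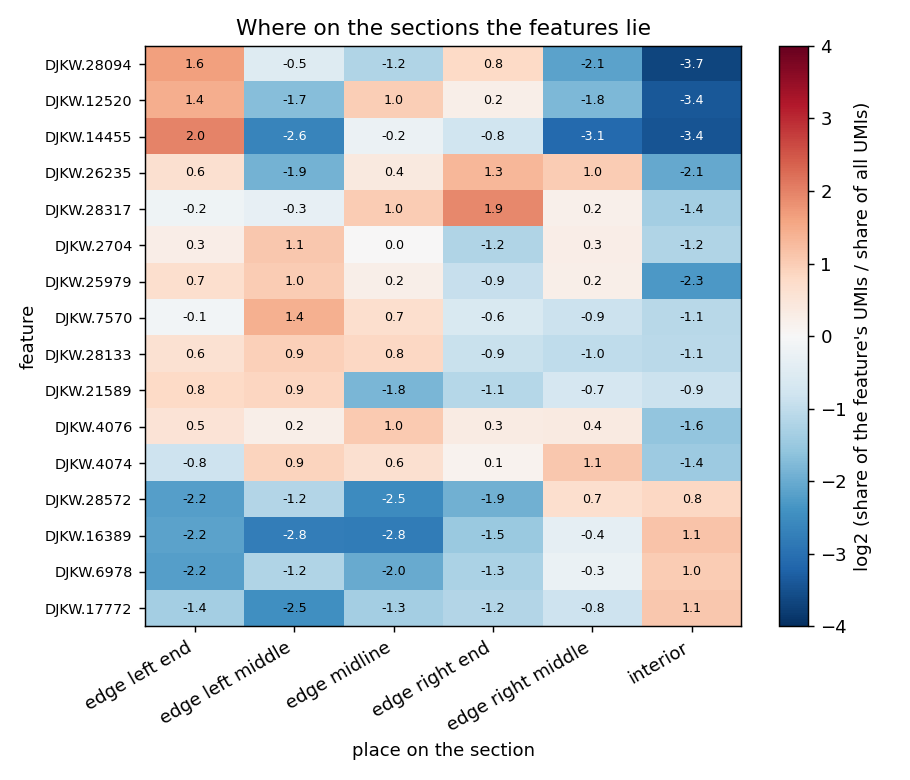
Share of each feature's UMIs in a place divided by that place's share of all UMIs, on a log2 scale, for 5 places of the rim and the interior, over all wells. Values above 0 mean more UMIs than the depth of the place, and DJKW.14455, with 83.4% of its UMIs at the left row ends and 3.26% in the interior, stands highest in the first and far below 0 in the second.

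Another pair of rim features did not share the lean to the left. DJKW.26235 stood at 68.0, 79.3, 29.7 and 40.9 CPM on the right of wells A to D and at 31.8, 42.3, 17.3 and 15.7 CPM on the left. The right was higher in each well although the ranges of the wells overlap, and the difference was 1.23 ± 0.15 (right minus left, SE, edgeR adjusted p = 0.0130). DJKW.26235 was the 1 feature of the 16 called higher on the right, a call lost without well B (edgeR adjusted p = 0.0832) or well C (0.103). It was also called higher at the edge (interior minus edge -2.07 ± 0.28, SE, edgeR adjusted p = 1.07e-04). Its row ends were higher by 1.18 ± 0.22 (edgeR adjusted p = 0.0189), which missed the threshold within the rim alone (edgeR adjusted p = 0.151) and without well C (0.129). Its lowest level along the rim was on the left between the ends, at 7.91 ± 8.04 CPM, against 66.1 ± 31.1 CPM on the right between the ends (SD, n = 4). DJKW.28317 was higher at the edge (-1.17 ± 0.28, interior minus edge, SE, edgeR adjusted p = 6.59e-03). Its right side stood at 141 CPM in well A against 17.0 to 25.9 CPM in wells B, C and D, and its right minus left difference of 0.98 ± 0.44 did not pass (edgeR adjusted p = 0.261).

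A further 5 features were spread along the left rim, at its ends and between them. DJKW.2704 had 34.1% of its UMIs on the left rim between the ends and 25.5% at the left ends, and stood there at 57.0 ± 5.71 and 37.9 ± 24.7 CPM (SD, n = 4). DJKW.25979 stood at 54.2 ± 12.5 CPM between the left ends and 38.5 ± 13.0 CPM at them. Both were higher at the edge than inside in 4 of 4 wells, by -1.12 ± 0.24 for DJKW.2704 and -2.43 ± 0.35 for DJKW.25979 (interior minus edge, SE, edgeR adjusted p = 2.85e-03 and 1.69e-04). The call of DJKW.2704 was lost without well D (edgeR adjusted p = 0.0637). Neither passed between right and left (edgeR adjusted p = 0.220 and 0.0527), although the left was higher in 3 of 4 wells for DJKW.2704 and in 4 of 4 for DJKW.25979. A single spot on the right rim of well D held 30 UMIs of DJKW.2704. With each feature's highest spot of each well left out, its right minus left difference was -1.59 ± 0.21 (edgeR adjusted p = 0.0154).

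DJKW.28133 was the most one-sided of these 5 by test. It stood at 123, 27.0, 20.3 and 22.5 CPM on the left of wells A to D and at 34.9, 6.10, 3.79 and 9.45 CPM on the right. The left was higher in each well, by 1.65 on the log2 scale (right minus left -1.65 ± 0.22, SE, edgeR adjusted p = 0.0166). DJKW.21589 stood at 115, 27.9, 28.3 and 44.1 CPM on the left and at 15.7, 10.7, 8.20 and 22.0 CPM on the right (right minus left -1.51 ± 0.29, SE, edgeR adjusted p = 0.0445). DJKW.7570 stood at 163, 53.1, 21.1 and 24.7 CPM on the left and at 36.6, 15.2, 7.57 and 16.5 CPM on the right (-1.36 ± 0.26, SE, edgeR adjusted p = 0.0445). Within the rim alone DJKW.28133 and DJKW.21589 were still called (edgeR adjusted p = 0.0118 and 0.0380) and DJKW.7570 was not (0.0537). Without each feature's highest spot per well, DJKW.21589 and DJKW.7570 missed the threshold (edgeR adjusted p = 0.111 and 0.0824). Without well B or without well C, 0 of the 5 features called between the sides passed in edgeR. Few features of any kind passed in those fits: 3 on the right and 11 on the left of 8255 tested without well B, and 1 on the right and 0 on the left of 7351 without well C. The differences of these 5 features kept their direction, at -1.57 and -1.49 for DJKW.21589 and 1.25 and 1.31 for DJKW.26235 without well B and without well C. In edgeR 10 of the 15 members tested without well B, and 6 of 12 without well C, had an unadjusted p under 0.05. The share of all features under that limit was not counted, so nothing about the sides is read from these counts.

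In well A, DJKW.7570 and DJKW.28133 stood higher inside than at the edge, as did DJKW.4076 (63.0 against 36.0 CPM) and DJKW.4074 (76.5 against 59.5 CPM). DJKW.7570 stood at 171 CPM in the interior and 95.5 CPM at the edge of well A, and at 16.3, 7.08 and 3.03 CPM in the interior against 47.1, 19.5 and 34.3 CPM at the edge of wells B, C and D. DJKW.28133 stood at 144 CPM inside and 80.6 CPM at the edge of well A, and was lower inside in the other 3 wells. Neither was called between interior and edge (edgeR adjusted p = 0.258 and 0.237). DJKW.21589 was called higher at the edge (-0.70 ± 0.23, interior minus edge, SE, edgeR adjusted p = 0.0393), with 72.0 CPM inside and 70.5 CPM at the edge of well A. That call was lost without well B, C or D (edgeR adjusted p = 0.0894, 0.162 and 0.308) and without its highest spots (0.758). It was also lost with DESeq2 (adjusted p = 0.148). Well A supplied 23 interior spots.

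**Figure D4:**
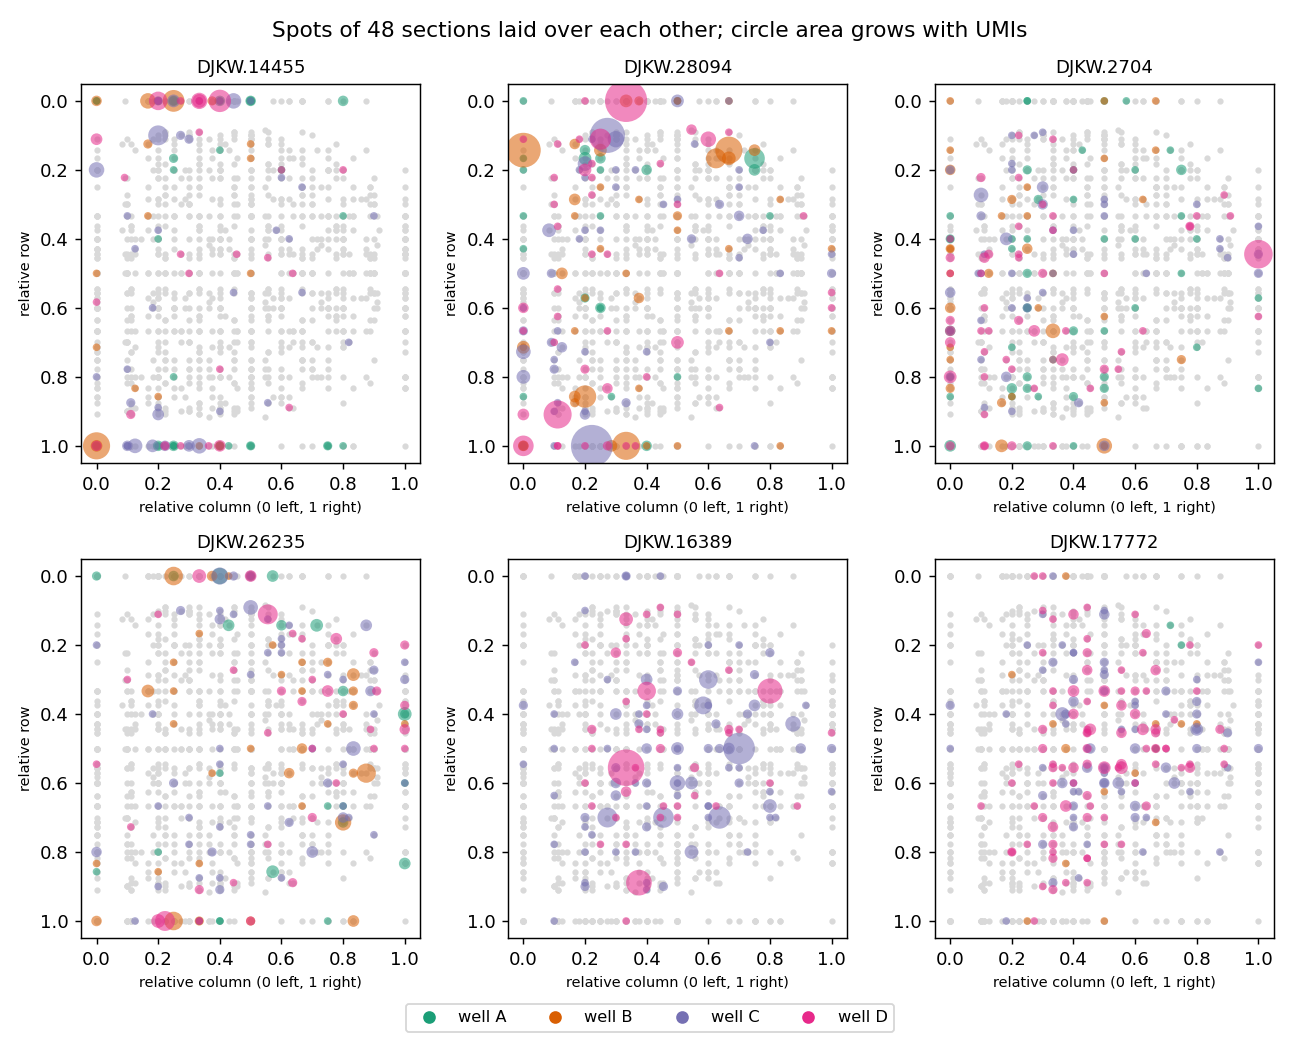
Spots that held 6 of the features, with the 48 sections laid over each other on relative column (0 left, 1 right) and relative row, colour for the well and circle area growing with UMIs; grey points are all section spots. DJKW.14455 and DJKW.28094 gather at both row ends, mostly on the left, DJKW.2704 along the left, DJKW.26235 along the right and the row ends, and DJKW.16389 and DJKW.17772 inside.

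The remaining interior features, 4 in number, lay mostly inside the sections of wells C and D. DJKW.16389 had 69.8% of its UMIs of well C and 92.0% of those of well D in interior spots, which supplied 41.8% and 44.0% of all UMIs there. It stood at 98.0 CPM in the interior and 30.5 CPM at the edge of well C, and at 90.2 and 6.19 CPM in well D. The interior was higher in both wells that held it, and the log2 difference was 2.80 ± 0.36 (interior minus edge, SE, edgeR adjusted p = 1.56e-04). DJKW.17772 stood at 18.4, 53.3 and 75.1 CPM in the interior of wells B, C and D and at 4.12, 12.1 and 16.2 CPM at their edge. Its difference was 2.52 ± 0.22 (SE, edgeR adjusted p = 2.31e-06), higher inside in 3 of the 3 wells with at least 10 UMIs. DJKW.6978 stood at 60.4 and 75.7 CPM inside and at 19.5 and 19.0 CPM at the edge of wells C and D (2.19 ± 0.22, SE, edgeR adjusted p = 2.11e-05). DJKW.28572 stood at 80.0 and 85.9 CPM inside and 17.6 and 56.2 CPM at the edge (1.65 ± 0.28, SE, edgeR adjusted p = 5.63e-04). It also lay on the right rim between the ends, at 51.4 ± 76.5 CPM against 42.6 ± 46.7 CPM in the interior (SD, n = 4). A spot there in well D held 31 of its UMIs.

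The interior calls of DJKW.16389, DJKW.6978 and DJKW.28572 rested on wells C and D, since wells A and B held 7 UMIs of DJKW.28572 and 0 of DJKW.16389 and DJKW.6978. Without well C or without well D these 3 did not pass the filter on low counts and were not tested, which left 1 of the 4 called, DJKW.17772. DJKW.16389 missed the threshold with DESeq2 (adjusted p = 0.128, log2 difference 2.93). Of these 4, 3 were also called higher in the middle than at the row ends, by -1.76 ± 0.21 for DJKW.28572, -1.45 ± 0.30 for DJKW.16389 and -1.20 ± 0.26 for DJKW.17772 (ends minus middle, SE, edgeR adjusted p = 1.41e-03, 0.0415 and 0.0298). Within 1 zone these calls did not hold: DJKW.28572 stood at -0.14 in the interior alone (edgeR adjusted p = 0.9998) and DJKW.17772 turned to 0.24 within the rim alone (0.912), while DJKW.16389 passed the filter in neither. With DESeq2 DJKW.28572 alone of these 3 passed (adjusted p = 0.0116, against 0.259 for DJKW.16389 and 0.386 for DJKW.17772). Without well B neither DJKW.16389 nor DJKW.17772 passed (edgeR adjusted p = 0.0918 and 0.0999), and without its highest spot of each well DJKW.16389 did not (0.237). Without well C or D none of the 3 passed the filter, and 0 were called. None of the 4 was called between right and left.

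DJKW.4076 and DJKW.4074, whose identifiers are close in number, differed in place between wells and shared spots. DJKW.4076 stood at 40.0, 105, 16.8 and 19.5 CPM in wells A to D. At the row ends it stood at 41.8 CPM in well C and 48.2 CPM in well D, against 4.14 and 2.56 CPM in the middle. In well A the order was turned, with 15.1 CPM at the ends and 63.6 CPM in the middle, and in well B the values were 109 and 107 CPM. Its ends minus middle difference over all wells was 0.85 ± 0.66 and did not pass (SE, edgeR adjusted p = 0.573). DJKW.4076 was called higher at the edge (-1.22 ± 0.37, interior minus edge, SE, edgeR adjusted p = 0.0248) in 3 of 4 wells, a call lost without well B, C or D (edgeR adjusted p = 0.0636, 0.169 and 0.217) and with DESeq2 (0.0854). DJKW.4074, nearly confined to wells A and B, was called in none of the 3 contrasts (edgeR adjusted p = 0.311, 0.303 and 0.109). Its level was 24.7 CPM at the row ends and 97.4 CPM in the middle of well A, and 83.1 and 115 CPM in well B.

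The features were next compared for the spots they share. Of all spots, 213 held none of the 16, 267 held 1 and 736 (60.5%) held 2 or more, with 7 as the highest number, in 5 spots. Over 120 pairs, Pearson's r of log-scaled counts over all spots was at least 0.5 for 1 pair and at least 0.2 for 3. The median r was -0.02 and the lowest -0.11. Spots of a library share depth and sections, so these values describe and are given without a test. The pair above 0.5 was DJKW.4076 and DJKW.4074, at r = 0.61. They shared 57 spots, which were 35.6% of the spots of DJKW.4076 and 59.4% of those of DJKW.4074. DJKW.4076 was caught in 13.2% of all spots. The likeness held in each well with enough UMIs, at r = 0.68 over 180 spots of well A and 0.75 over 201 spots of well B, and fell to 0.38 with well B left out. In wells A and B 60.2% of the spots with DJKW.4074 also held DJKW.4076, which was caught in 24.1% of spots there. Whether reads of the 2 features can be assigned to either was not tested.

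**Figure D5:**
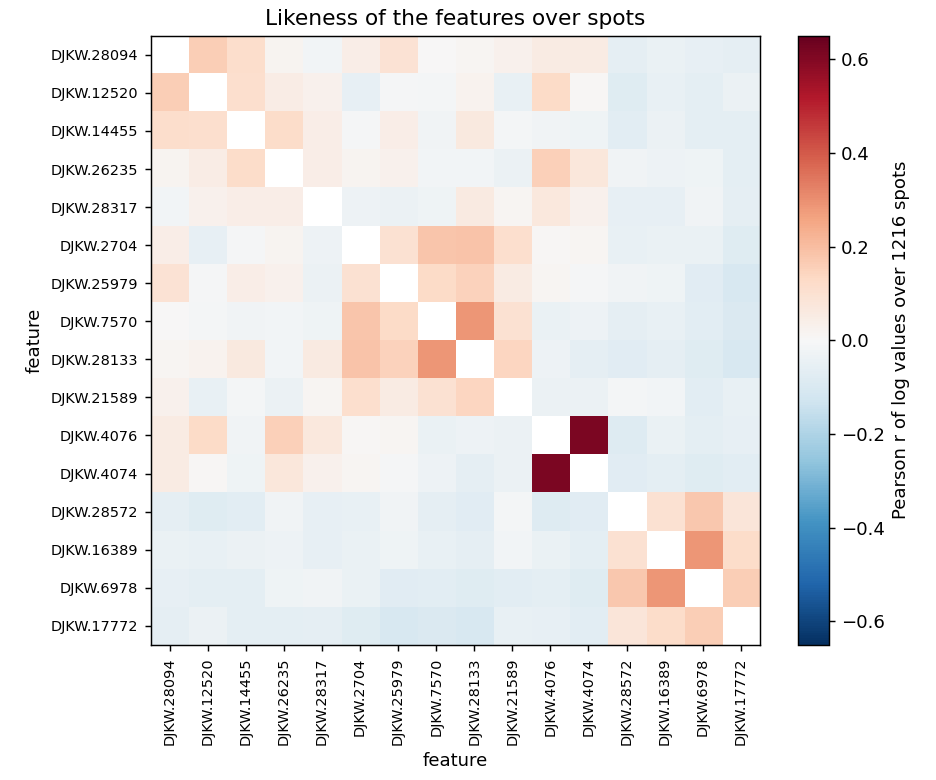
Pearson's r of log-scaled counts over all spots for each pair of the 16 features, with the diagonal left blank. The pair DJKW.4076 and DJKW.4074 stands out at 0.61, and no other pair reaches 0.3.

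Features of one place shared spots to differing degrees. The next pairs were DJKW.7570 with DJKW.28133 and DJKW.16389 with DJKW.6978, both at r = 0.29. DJKW.7570 and DJKW.28133 shared 60 spots, 35.3% and 33.9% of their spots, with r of 0.33, 0.27, 0.12 and 0.15 in wells A to D. DJKW.16389 and DJKW.6978 shared 49 spots, 38.6% and 31.2% of their spots, with r = 0.25 in well C and 0.26 in well D. Among the 279 interior spots of wells C and D, 48.1% of those with DJKW.16389 held DJKW.6978, which was caught in 32.3% of them all. Spots with DJKW.16389 were deeper there, with a median of 14263 UMIs against 11648. Of these interior spots, 75 held none of the 4 interior features, 100 held 1, 63 held 2, 36 held 3 and 5 held all 4.

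At the left row ends of the rim, 115 of the 261 spots held none of DJKW.28094, DJKW.12520 and DJKW.14455, 107 held 1, 32 held 2 and 7 held all 3. Of the spots with DJKW.12520 there, 25.9% held DJKW.14455, close to the 28.4% of all spots of the place. DJKW.28094 was found in 31.1% of the spots with DJKW.14455 and in 24.5% of the place. Within the place r was 0.21 between DJKW.28094 and DJKW.12520 and 0.01 between DJKW.12520 and DJKW.14455. Along the left rim, 176 of 457 spots held none of the 5 features described there, 143 held 1, 82 held 2, 39 held 3, 16 held 4 and 1 held all 5. Each pair of the 5 shared spots above the share of the place. DJKW.28133 was in 37.9% of the left-rim spots with DJKW.7570 and in 23.6% of all left-rim spots, while DJKW.21589 was in 18.7% of those with DJKW.25979 and in 16.4% of all. Depth differs between spots, and its part in this was not tested. These sets of features were chosen after their places were seen.

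Outside the 16, the features with the most similar pattern over spots were often more abundant. They were sought among 7794 other features with at least 100 UMIs, by r over all spots of the 4 wells. The closest match of any of the 16 was DJKW.25676 with DJKW.16389, at r = 0.70, and r was 0.69 in well C and 0.65 in well D. DJKW.25676 had 1162 UMIs in 248 spots and was present in 66.1% of the spots with DJKW.16389. DJKW.7916 was next at r = 0.65, with 4573 UMIs and in 87.4% of those spots. DJKW.28572 was most like DJKW.12130 (r = 0.66), a scarcer feature with 145 UMIs in 66 spots. DJKW.28094 was most like DJKW.25816 (r = 0.52, and 0.46 to 0.64 within wells), which was present in 84.1% of its spots. DJKW.14455 was most like DJKW.26548 (r = 0.52), present in 76.1% of its spots. The pair DJKW.4076 and DJKW.4074 had the same 2 nearest others, DJKW.28206 (r = 0.47 and 0.19) and DJKW.11220 (0.43 and 0.19). The lowest best match was that of DJKW.4074, at 0.19, followed by DJKW.21589 and DJKW.26235, both at 0.23.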

How the data were processed

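The values are raw UMI counts of each feature in tissue spots, as deposited, with Space Ranger 2.0.1 named per the file headers. Seurat appears in the submitters' processing notes without its role. The genome build is not given in the sources used here. Spot positions are the array rows and columns deposited with the counts. Levels are CPM, computed as UMIs per 1e+06 UMIs of the well or place. Sums per well and place were fitted over all features with the well as a block, by the quasi-likelihood test of edgeR 4.0.16 (R 4.3.3) after filterByExpr and TMM scaling, with Benjamini-Hochberg adjustment. Standard errors are the log2 difference over the square root of F. The well is a block because both places lie on the same sections. Likeness is Pearson's r of log(1 + counts scaled to the median spot of the well). Thinned data drew 2000 UMIs per spot. Scripts were tested on simulated data. Members, lists and tests were chosen with earlier results of these data known. All 16 members are described. The naming rule picked, among them, those extreme in spots, UMIs, wells, sharing and each contrast, and those nearest to the thresholds. Alternatives included DESeq2 1.42.0, library totals, other filters and leaving out each well.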

Additional observations from a re-analysis of the deposited data

Results flagged for a closer look

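Of 34 sets of 4 well values (level and share of spots of each feature, and 2 summed values), 3 held a well far from the other 3. The rule used these counts and the sets are not independent, so they describe the features and test nothing. DJKW.28133 stood at 90.0 CPM in well A against 13.9 to 20.1 CPM elsewhere, and in 33.9% of the spots of well A against 10.4% to 13.4%. DJKW.28317 stood at 70.0 CPM in well A against 16.8 to 25.1 CPM elsewhere.

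UMIs also occurred in the 53 spots off the sections, which the contrasts of sides and row ends leave out. DJKW.12520 had 37 UMIs there, of which 33 lay in 1 spot of well B with 11321 UMIs in all. DJKW.28094 had 10 UMIs there. Of the 16 features, 7 had 0.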

How the results depend on the processing

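The number of members followed the rule closely: 222 with 200 UMIs, 1 with 500 UMIs, 3 with 10% and 126 with 20% of spots, 3042 with spots thinned to 2000 UMIs (where nearly every feature is in few spots) and 10 to 30 without 1 well. Without well A 6 of the 16 were among the 10 found, and without well C 7 among 30. Higher at the edge were 9 members, with 5 with no replicate block, 2 by the 10% rule, 1 by the 500 UMI rule and 6 to 11 without 1 well. Higher inside were 4, with 0 with no replicate block (edgeR, 1 at an unadjusted p under 0.05), 0 by the 10% or the 500 UMI rule and 1 to 4 without 1 well. Higher on the left were 4, with 8 without a filter, 0 with no replicate block (5 unadjusted), 0 in the interior (4 members tested, 1 unadjusted), 1 by the 10% rule, 0 by the 500 UMI rule and 0 to 6 without 1 well. Library totals gave 6 on the left and 1 on the right, with the median right minus left difference of all features at -0.20 against 0.00, and interior minus edge at -0.40 against -0.06, without changing the 9 and 4 of edge and interior or the 4 and 3 of row ends and middle. Over all features, totals moved the share of calls that were higher inside from 54.2% to 21.9%, on the right from 41.8% to 13.1% and at the row ends from 58.4% to 71.2%. Higher on the right was 1, with 2 without a filter, 0 with no replicate block (1 unadjusted), 0 in the interior, by either rule or without well B or C, and otherwise 1. Higher in the middle were 3, with 1 by DESeq2, 6 without a filter, 0 with no replicate block (0 unadjusted), within the rim or in the interior, 0 by either rule and 0 to 4 without 1 well. Higher at the row ends were 4, with 2 with no replicate block, 0 in the interior (1 member tested), 2 and 1 by the rules and 3 to 4 without 1 well. Of all features, no replicate block called 0 of 7923 on either side. It called 11 at the row ends and 0 in the middle of 8264, and 457 inside and 489 at the edge of 8636. In the interior alone 22 on the right and 11 on the left of 3816 features were called. Between ends and middle there, 3 and 12 of 2840 were called. Without a filter 584 on the right and 549 on the left of 18402 were called, and 582 in the middle of 18632. Of 244 values of called members under alternatives, 190 kept both call and direction, 53 missed it and 1 was reversed: DJKW.17772 between row ends and middle was 0.24 within the rim (edgeR adjusted p = 0.912). The 1 pair sharing spots was 0 by a Jaccard index of at least 1/3 (0.286) and 0 to 1 without 1 well. The share with a neighbouring spot was 26.2% in thinned data, since thinning lowers each spot's chance to hold a feature. Leaving out each feature's highest spots was chosen after seeing the data. The cause of the other changes was not tested. Wells A and B, with few interior spots, limit what the interior can show.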
